A study of Rattus norvegicus with 68 samples.

Results

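The 10 genes described here act in glucose breakdown and oxygen sensing and were followed in the nasal epithelium of rats that inhaled formaldehyde, a reactive gas and nasal carcinogen of the rat. The genes were chosen by symbol: Slc2a1, Hk1, Hk2, Pfkp, Aldoa, Pgk1, Eno1, Ldha, Vegfa and Hif1a. All 10 were measured, among 14217 genes on the array, and where several probe sets (groups of short probes for a transcript) named a gene, the brightest of them on average represented it. Levels are log2 signals of one probe set, so a level of one gene cannot be set against that of another.

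The 68 arrays came from 68 male F344/CrlBR rats, labelled 8 weeks old, in 17 groups of 4. That age is given at every exposure time, 13 w included, so it cannot be the age at sampling in all groups. Length of exposure and age at sampling cannot be told apart from these labels. Rats breathed formaldehyde in whole-body chambers for 6 hours on 5 days of each week, at 0, 0.7, 2, 6, 10 or 15 ppm for 5 d or 13 w, and at 0.7, 2, 6, 10 or 15 ppm for 4 w. Doses at 5 d and 13 w were compared with 0 ppm of the same time, and doses at 4 w with 0.7 ppm, so the 4 w changes leave out whatever 0.7 ppm itself does. The times are those of the time point labels. The treatment duration field of 19 of the 20 arrays labelled 4 w gives 5 days instead, and the design text gives 1 week for the shortest exposure. The cells were released with proteases from the lateral meatus and nasoturbinate of level II of the nose, after the olfactory lining had been discarded, and the labels describe them as mainly transitional epithelium. The labels give each array its own animal and mention no pooling. In such bulk RNA, a change in the number of cells of a type cannot be told apart from a change in the RNA per cell.

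Glycolysis splits glucose into pyruvate in the cytosol, yielding ATP without oxygen, and lactate dehydrogenase then turns pyruvate into lactate so that the pathway can go on. Hypoxia-inducible factor 1 is a pair of proteins whose alpha subunit, encoded by Hif1a, is destroyed when oxygen is plentiful. When it is stabilised it binds short hypoxia response elements and raises the transcription of glucose transporters, most glycolytic enzymes and the angiogenic factor Vegfa. The same enzymes are also raised in proliferating cells by growth-factor signalling and Myc.

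At 15 ppm, Hk1, Hk2, Pfkp, Aldoa, Pgk1, Eno1, Ldha and Hif1a rose at all 3 times and Slc2a1 at 4 w and 13 w, each by less than 1 log2 unit, while Vegfa did not pass the test at any dose. A gene was called where limma's p, adjusted within a comparison over all 14217 genes by the Benjamini-Hochberg method, was under 0.05, and every member called was higher. At 15 ppm, 8 of the 10 members were called at 5 d, when 37.7% of all genes were called in either direction. The corresponding counts were 9 of 10 at 4 w, with 37.4% of all genes called, and 9 of 10 at 13 w, with 44.2%. The share of all genes called higher was 18.3% at 5 d, 21.3% at 4 w and 23.5% at 13 w. The share called lower was 19.5%, 16.1% and 20.6%. The median log2 change of the 10 members at 15 ppm was 0.46 at 5 d, 0.60 at 4 w and 0.59 at 13 w, and the median over all genes was -0.01, 0.01 and -0.02.

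At 10 ppm, 6 members were called at 5 d (15.5% of all genes called, 9.75% higher), 4 at 4 w (14.8%, 9.03% higher) and 8 at 13 w (26.4%, 13.8% higher). The median changes of the members were 0.27, 0.30 and 0.39. At 6 ppm no member was called at 5 d, though 8.83% of all genes were (3.54% higher), and 3 members were higher at an unadjusted p under 0.05. One member was called at 6 ppm after 4 w, Eno1 (3.28% of all genes, 2.05% higher), and 1 after 13 w, Slc2a1 (12.2%, 7.54% higher). At 2 ppm limma called no member at 5 d (0.0281% of all genes), 4 w (0.0211%) or 13 w (0.00703%), and 0 members had an unadjusted p under 0.05 at any of the 3 times. The counts at 6 and 10 ppm rested on single animals in places. At 6 ppm after 5 d, 2 members were called without rat 295. At 10 ppm after 5 d, 3 were called without rat 329. At 6 ppm after 4 w, 0 were called without rat 245 or rat 310 and 2 without rat 309. At 6 ppm after 13 w, 0 were called without rat 226 or rat 317. The shares of all genes called with a rat left out are not given here.

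**Figure D1:**
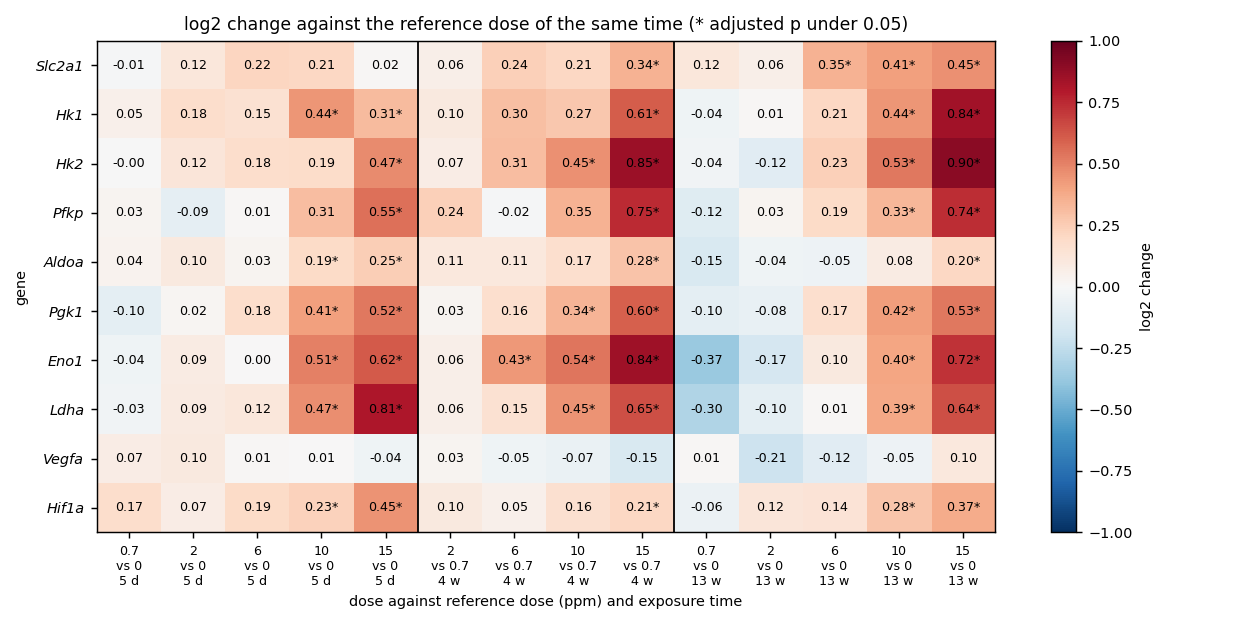
Heat map of the log2 change of each of the 10 genes (rows) at each dose against the reference dose of the same time (columns), with the value in each cell and a star where the adjusted p was under 0.05. Starred cells gather at 10 and 15 ppm, and the Vegfa row holds none.

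**Figure D2:**
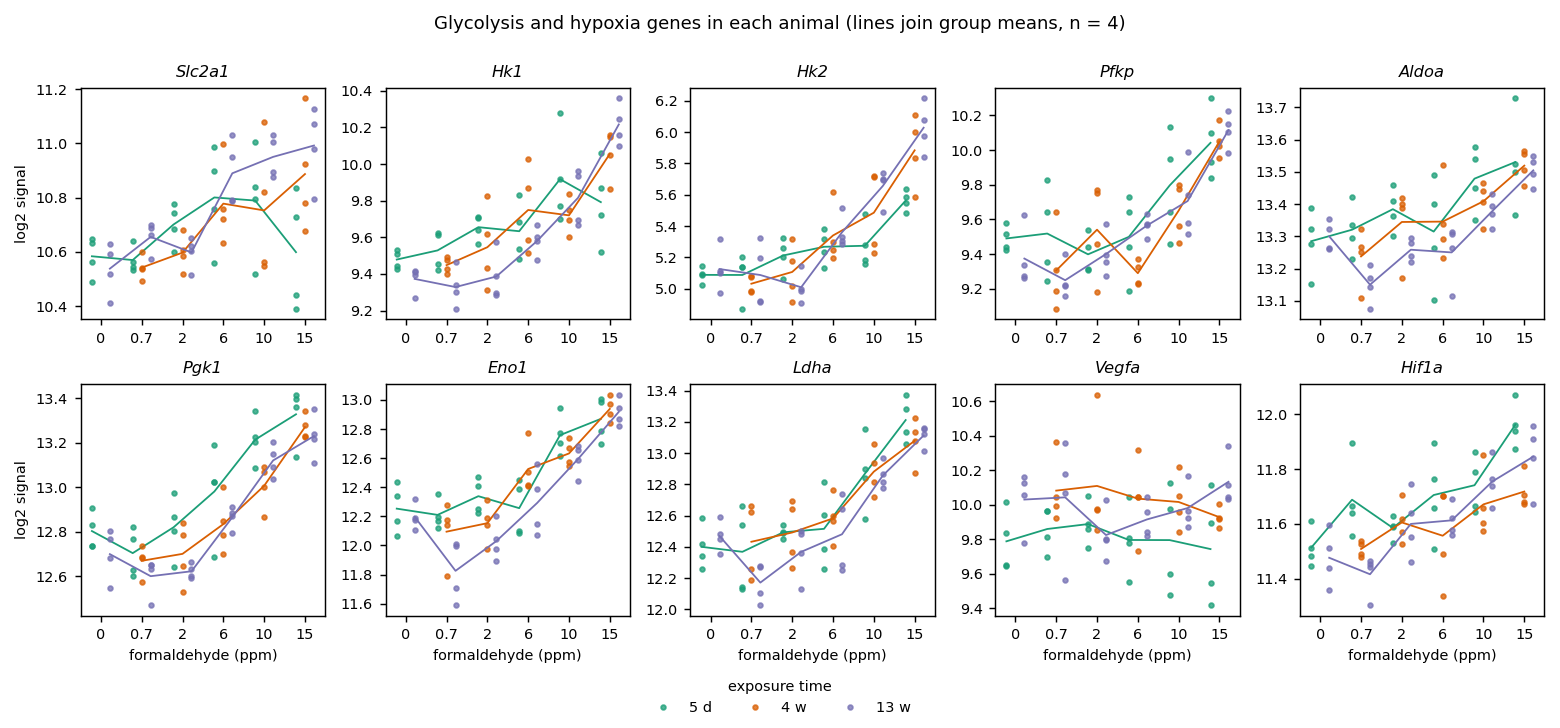
log2 signal of the 10 genes in every animal by formaldehyde dose in ppm, in a panel of its own scale for each gene, with points for rats and lines joining the means of 4 rats at 5 d, 4 w and 13 w. Most lines bend upward above 2 or 6 ppm, the Slc2a1 line at 5 d returns to its starting level at 15 ppm, and the Vegfa lines show no common slope.

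Glucose enters the cell and is trapped there by the products of the first 3 genes. Slc2a1 encodes GLUT1, the basal glucose transporter, and it was called at 15 ppm after 4 w and 13 w but not after 5 d. At 13 w the 4 rats at 0 ppm had log2 signals of 10.41, 10.52, 10.59 and 10.63, against 10.79, 10.98, 11.07 and 11.13 at 15 ppm. All 4 exposed rats were above all 4 controls. The change was 0.45 ± 0.10 (SE, n = 4 rats a group), or 1.37-fold, with an adjusted p of 0.000125. Slc2a1 had also risen at 6 ppm after 13 w, where the rats had 10.79, 10.79, 10.95 and 11.03, a change of 0.35 with an adjusted p of 0.012. That call did not hold without rat 226 (adjusted p = 0.0509) or rat 317 (0.0566), against 0.7 ppm (0.119) or with RNA integrity as a covariate (0.0668). At 10 ppm after 13 w the change was 0.41 (adjusted p = 0.00101), so the 3 upper doses at 13 w lay close together.

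After 5 d at 15 ppm the Slc2a1 signals were 10.39, 10.44, 10.73 and 10.84, which spread around the 10.49, 10.56, 10.63 and 10.65 of the 0 ppm rats on both sides. The change was 0.02, with a 95% interval from -0.18 to 0.21. At 6 and 10 ppm after 5 d Slc2a1 was not called in the main fit. With array weights it was, by 0.25 (adjusted p = 0.0294) and 0.26 (0.0378), and at 10 ppm also without rat 324 (0.30, 0.0377). At 4 w the 0.7 ppm rats had 10.49, 10.54, 10.54 and 10.60 and the 15 ppm rats 10.68, 10.78, 10.93 and 11.17. These groups did not overlap, and the change of 0.34 was called with an adjusted p of 0.00404. Without rat 368 that adjusted p was 0.05.

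Hk1 encodes hexokinase 1, the housekeeping enzyme on the mitochondrial surface that phosphorylates glucose. Its rise at 15 ppm was 0.31 at 5 d (1.24-fold, adjusted p = 0.014), 0.61 at 4 w (1.52-fold, 4.51e-06) and 0.84 at 13 w (1.79-fold, 1.48e-09), each ± 0.10 (SE). At 13 w the 0 ppm rats had 9.27, 9.40, 9.41 and 9.42, and the 15 ppm rats 10.10, 10.16, 10.25 and 10.36. The groups lay far apart compared with their own spread. The 15 ppm rats at 5 d had 9.52, 9.72, 9.87 and 10.06 and the lowest of them lay within the control range of 9.43 to 9.53. The 5 d call did not hold without rat 356 (adjusted p = 0.117). At 10 ppm Hk1 was called at 5 d (0.44, 0.00201) and 13 w (0.44, 0.00089) and not at 4 w (0.27, 0.0712). A second, dimmer Hk1 probe set, with a mean signal of 4.99, gave -0.14 at 10 ppm and -0.13 at 15 ppm after 5 d, neither of them called. Nor was it called at 15 ppm after 4 w (0.12, adjusted p = 0.325) or at 10 ppm after 13 w (0.19, 0.134). At 15 ppm after 13 w it was called higher as well.

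Hk2, the inducible hexokinase of muscle and tumours, lay at the dim end of the array, with group means mostly under 6, so no fold is given for it. At 13 w the 4 controls had 4.97, 5.10, 5.11 and 5.32, and the 4 rats at 15 ppm 5.84, 5.98, 6.08 and 6.22. No exposed rat reached down to the controls. The log2 change was 0.90 ± 0.11 (SE; adjusted p = 3.17e-10). It was 0.85 at 4 w (3.37e-09), where the 0.7 ppm rats lay from 4.98 to 5.08 and the 15 ppm rats from 5.59 to 6.11. At 5 d it was 0.47 (0.000251), with 5.02 to 5.15 at 0 ppm and 5.48 to 5.64 at 15 ppm. At 10 ppm Hk2 was called at 4 w (0.45, 0.00166) and 13 w (0.53, 9.17e-05) but not at 5 d, where the change was 0.19. The Hk2 change exceeded the Hk1 change at 15 ppm by 0.16 at 5 d, 0.25 at 4 w and 0.06 at 13 w. In an exact two-sided permutation test of that difference at each of the 14 dose comparisons, 0 had an unadjusted p under 0.05.

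The middle of the pathway is represented by phosphofructokinase, aldolase, phosphoglycerate kinase and enolase. Pfkp, the platelet isoform of phosphofructokinase and a main control point of glycolysis, had 9.42, 9.44, 9.52 and 9.58 in the 0 ppm rats at 5 d and 9.84, 9.93, 10.10 and 10.30 at 15 ppm. The groups did not overlap, and the change was 0.55 ± 0.13 (SE), 1.47-fold, with an adjusted p of 0.000403. It rose by 0.75 at 4 w (1.68-fold, 4e-06) and 0.74 at 13 w (1.67-fold, 2.63e-06). The 13 w controls had 9.26, 9.27, 9.34 and 9.63, below all 4 rats at 15 ppm, which had 9.98, 10.11, 10.15 and 10.23. At 10 ppm the Pfkp changes were 0.31, 0.35 and 0.33, and only the one at 13 w was called (adjusted p = 0.0472). That call did not hold without rat 225, 229, 230, 346 or 349 (adjusted p from 0.0902 to 0.238). The changes at 5 d and 4 w passed without rat 324 (0.022) and without rat 242 (0.0149) or 331 (0.033).

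Aldoa encodes aldolase A, which splits fructose bisphosphate into triose phosphates, and its rises were small beside those of most other members. At 13 w the controls had 13.26, 13.27, 13.32 and 13.35 and the 15 ppm rats 13.45, 13.49, 13.53 and 13.55. The ranges were narrow and did not overlap. The change was 0.20 ± 0.07 (SE), 1.15-fold, with an adjusted p of 0.0103. It was 0.25 at 5 d (1.19-fold, 0.0026), where 0 ppm spanned 13.15 to 13.39 and 15 ppm 13.37 to 13.73, and 0.28 at 4 w (1.22-fold, 0.000603). The 5 d groups touched at their edges. The only Aldoa call at 10 ppm, 0.19 at 5 d (0.0395), did not hold without rat 204, 210, 328, 329 or 330 (0.0527 to 0.197), with arrays centred on their medians (0.0592), on the 5 d arrays alone (0.147) or against 0.7 ppm (0.0899).

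Pgk1 encodes phosphoglycerate kinase 1, the first ATP-yielding step, and it passed the test at 10 and 15 ppm at all 3 times. At 5 d the 0 ppm rats had 12.74, 12.74, 12.83 and 12.91, the 10 ppm rats 13.09, 13.20, 13.23 and 13.34, and the 15 ppm rats 13.14, 13.36, 13.40 and 13.42. Both exposed groups were above every control, and they overlapped each other. The changes were 0.41 (adjusted p = 0.000115) and 0.52 (2.09e-07, 1.44-fold), each ± 0.08 (SE). At 4 w they were 0.34 (0.00153) and 0.60 (1.03e-08, 1.52-fold), and at 13 w 0.42 (2.88e-05) and 0.53 (9.57e-08, 1.44-fold). The 13 w signals were 12.55, 12.68, 12.77 and 12.80 at 0 ppm and 13.11, 13.22, 13.24 and 13.35 at 15 ppm, again without overlap. A second Pgk1 probe set, with a mean of 11.8, rose by 0.69, 0.67 and 0.62 at 15 ppm. The third, with a mean of 3.64 near the bottom of the scale, was not called.

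Eno1 encodes alpha-enolase, which makes phosphoenolpyruvate, and it was called in 7 of the 14 dose comparisons. It was also the one member called at 6 ppm after 4 w, where the rats had 12.41, 12.42, 12.51 and 12.77 against 11.79, 12.14, 12.17 and 12.28 at 0.7 ppm. All 4 rats at 6 ppm were above all 4 at 0.7 ppm. The change was 0.43 ± 0.11 (SE), 1.35-fold, with an adjusted p of 0.0104. That call did not hold without rat 245 (0.105) or rat 310 (0.126). At 15 ppm the rise was 0.62 at 5 d (1.53-fold, 3.26e-06), 0.84 at 4 w (1.80-fold, 3.54e-09) and 0.72 at 13 w (1.65-fold, 7.51e-08). The 0 ppm rats at 5 d had 12.07, 12.17, 12.34 and 12.43 and the 15 ppm rats 12.70, 12.79, 12.99 and 13.01. At 13 w they had 12.11, 12.18, 12.19 and 12.32 and 12.82, 12.87, 12.94 and 13.04. Neither pair of groups overlapped.

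Ldha encodes the A subunit of lactate dehydrogenase, the form that favours lactate production. After 5 d, the 0 ppm rats had 12.26, 12.34, 12.42 and 12.58, the 10 ppm rats 12.58, 12.84, 12.90 and 13.15, and the 15 ppm rats 13.06, 13.13, 13.28 and 13.37. The 10 ppm group met the control range at one rat, and the 15 ppm group lay wholly above it. The change at 15 ppm was 0.81 ± 0.12 (SE), 1.75-fold, with an adjusted p of 3.22e-07. It was 0.65 at 4 w (1.56-fold, 2.54e-05) and 0.64 at 13 w (1.56-fold, 1.74e-05). The 13 w signals were 12.36, 12.45, 12.48 and 12.59 at 0 ppm and 13.01, 13.12, 13.15 and 13.16 at 15 ppm, with no overlap. At 10 ppm Ldha was called at 5 d (0.47, 0.00524), 4 w (0.45, 0.00801) and 13 w (0.39, 0.0144). These calls did not hold without rat 329 at 5 d (0.0587), without rat 245 at 4 w (0.0564), or without rat 225 (0.052) or 349 (0.0551) at 13 w, and the 13 w call did not hold with RNA integrity as a covariate (0.32, 0.0977).

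The Ldha change at 5 d moved with a measure of RNA quality. The difference between the 3' and 5' beta-actin control probe sets, which grows as RNA is shortened or incompletely copied, averaged 1.71 at 0 ppm, 2.61 at 6 ppm and 2.47 at 15 ppm after 5 d. Other measures did not all move that way. The same difference for Gapdh averaged 0.235, 0.348 and 0.143. RNA integrity numbers, which are higher for more intact RNA, averaged 7.7, 8.5 and 8.3 (n = 4, 3 and 4 with a value). With the beta-actin difference as a covariate the Ldha change at 5 d was 0.56 at 6 ppm (adjusted p = 0.00315), against 0.12 (0.654) without it, and 1.19 at 15 ppm. Its part in the result was not tested further.

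Ldhb, the B subunit of the same enzyme and not one of the 10 genes, went the other way at 5 d, where it fell by 0.54 at 15 ppm (adjusted p = 0.000502). Its changes of -0.29 at 4 w (0.0657) and -0.30 at 13 w (0.0559) did not pass. The change in Ldha minus that in Ldhb at 15 ppm was therefore 1.36 at 5 d, 0.94 at 4 w and 0.94 at 13 w, which measures unequal change and not a ratio of the subunits. The exact two-sided permutation p of that difference at 5 d was 0.0286, the smallest that 4 rats against 4 allow, and 0.16 after adjustment over the 28 tests of paralog pairs. Of the 14 tests of this pair, 5 had an unadjusted p under 0.05 and 0 passed after adjustment. With 0.0286 as the smallest p, these 14 tests could not by themselves pass adjustment over 28. The adjusted count therefore says nothing of the pair.

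**Figure D3:**
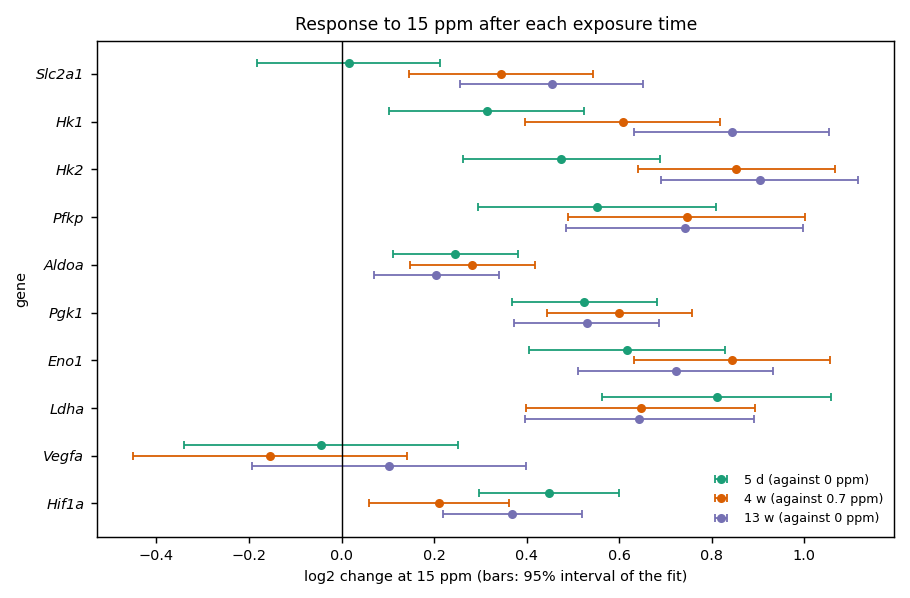
log2 change at 15 ppm for each of the 10 genes (rows) after 5 d, 4 w and 13 w, with bars for the 95% interval of the fit over 4 rats a group, against 0 ppm at 5 d and 13 w and against 0.7 ppm at 4 w. The points move to the right from 5 d to 13 w for Slc2a1 (0.02 to 0.45), Hk1 (0.31 to 0.84) and Hk2 (0.47 to 0.90), and every Vegfa interval spans 0.

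Hif1a itself, the oxygen-regulated subunit, rose at 15 ppm by 0.45 at 5 d (1.36-fold, adjusted p = 2.41e-06), 0.21 at 4 w (1.16-fold, 0.0232) and 0.37 at 13 w (1.29-fold, 4.8e-05), each ± 0.08 (SE). At 5 d the 0 ppm rats had 11.45, 11.48, 11.51 and 11.61 and the 15 ppm rats 11.87, 11.94, 11.96 and 12.07. At 13 w they had 11.36, 11.44, 11.51 and 11.60 and 11.67, 11.84, 11.91 and 11.96. All exposed rats were above all controls at both times. At 4 w the 0.7 ppm rats lay from 11.48 to 11.54 and the 15 ppm rats from 11.67 to 11.81, and the call did not hold without rat 243 (0.0517) or 362 (0.0839), or fitted on the 4 w arrays alone (0.0533). At 10 ppm Hif1a was called at 13 w (0.28, 0.00358) and 5 d (0.23, 0.0294). The 5 d call did not hold without rat 207, 208, 210, 328 or 329 (0.0637 to 0.155), with cyclic loess (0.0528), on the 5 d arrays alone (0.0661) or with RNA integrity as a covariate (0.06), and against 0.7 ppm the change was 0.05 (0.686). Hif1a is regulated chiefly through the stability of its protein, which these arrays do not measure.

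Vegfa encodes vascular endothelial growth factor A, a standard HIF target that drives vessel growth. At 5 d the 0 ppm rats had 9.65, 9.65, 9.84 and 10.02 and the 15 ppm rats 9.42, 9.55, 9.89 and 10.11, so that exposed rats lay both below and above the controls. The change was -0.04, with a 95% interval from -0.34 to 0.25. At 4 w it was -0.15 (-0.45 to 0.14), with 9.92 to 10.36 at 0.7 ppm and 9.86 to 10.00 at 15 ppm. At 13 w it was 0.10 (-0.19 to 0.40), with 9.78, 10.05, 10.12 and 10.16 at 0 ppm and 10.03, 10.04, 10.11 and 10.34 at 15 ppm. The groups overlapped at each time. Limma called Vegfa in 0 of the 14 dose comparisons, and 0 had an unadjusted p under 0.05. A second Vegfa probe set, with a mean of 7.53, gave 0.24, -0.21 and 0.12 at 15 ppm and was not called. Vegfa also varied most between rats of one group, with a pooled SD of 0.21 against 0.09 to 0.18 for the other members, which limits the size of change these arrays could show.

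Promoters of Ldha and Eno1, which rose, and of Vegfa, which was not called, are set side by side below as examples. The 300-base windows run from 250 bases before to 50 bases after an annotated RefSeq start in the GRCr8 assembly, 5′ to 3′ on the gene's strand. Capitals mark the hypoxia response element core ACGTG, which reads CACGT on the opposite strand, and the related core GCGTG, which reads CACGC there, and the E-box CACGTG, bound by Myc and its relatives, contains the first core on both strands. The windows shown are those of Ldha on the + strand at chr1:106507842-106508141, the second of Eno1 on the + strand at chr5:166003111-166003410, and the first of Vegfa on the + strand at chr9:22452604-22452903.
Ldha: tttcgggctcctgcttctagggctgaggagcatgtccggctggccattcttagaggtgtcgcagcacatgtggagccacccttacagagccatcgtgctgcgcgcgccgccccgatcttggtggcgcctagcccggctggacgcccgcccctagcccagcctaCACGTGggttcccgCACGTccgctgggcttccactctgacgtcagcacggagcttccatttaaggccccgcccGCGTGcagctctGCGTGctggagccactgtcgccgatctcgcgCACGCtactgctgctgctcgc
Eno1: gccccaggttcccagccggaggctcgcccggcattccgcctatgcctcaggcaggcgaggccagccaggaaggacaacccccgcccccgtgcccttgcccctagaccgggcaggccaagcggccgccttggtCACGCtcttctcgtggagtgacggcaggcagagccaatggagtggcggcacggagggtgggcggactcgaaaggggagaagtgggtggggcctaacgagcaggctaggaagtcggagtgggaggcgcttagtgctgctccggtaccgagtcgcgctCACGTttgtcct
Vegfa: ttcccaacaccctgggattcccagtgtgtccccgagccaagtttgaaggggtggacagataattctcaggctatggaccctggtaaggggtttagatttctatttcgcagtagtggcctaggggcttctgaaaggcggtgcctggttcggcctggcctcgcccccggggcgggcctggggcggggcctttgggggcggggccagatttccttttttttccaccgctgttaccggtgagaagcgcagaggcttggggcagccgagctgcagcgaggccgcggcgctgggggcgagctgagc

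The Ldha window held 3 matches to the ACGTG core over both strands, 2 of which together form an E-box, and 3 to the GCGTG core. The Eno1 window held 1 of each, and the Vegfa window none. In all, 14 windows matched 9 of the 10 members, and Pgk1 was not among them. The ACGTG core was found in 6 of the 14 windows, in Slc2a1, Hk1, Aldoa, Eno1, Ldha and Hif1a. The GCGTG core was found in 5, in Slc2a1, Pfkp, Eno1 and Ldha, and the E-box in those of Ldha and Hif1a. No window of Hk2, which rose, or of Vegfa held either core. Of all 33469 rat windows of that length, 19.2% held the ACGTG core, 29.7% the GCGTG core and 6.42% the E-box. A match is a stretch of letters and not a shown binding site, and the lack of one in the Vegfa window says nothing of elements farther away.

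The doses were also compared with the dose just below. After 5 d the step from 6 to 10 ppm called Eno1 (0.50, adjusted p = 0.00813, with 0.914% of all genes higher). The step from 10 to 15 ppm called Ldha (0.34, 0.049) and Hif1a (0.22, 0.0365), with 7.18% of all genes higher. None was called from 2 to 6 ppm at 5 d (1.1% of all genes higher), and 1 had an unadjusted p under 0.05. At 4 w the step from 2 to 6 ppm called Eno1 (0.37, 0.0386, with 1.71% of all genes higher), and that from 6 to 10 ppm called 0 members (0.577%), with 3 at an unadjusted p under 0.05. The step from 10 to 15 ppm at 4 w called Hk1 (0.34), Hk2 (0.40), Pfkp (0.40) and Pgk1 (0.26), with adjusted p from 0.0152 to 0.0479 and 5.11% of all genes higher. At 13 w Hk2 (0.35, 0.0268) and Pgk1 (0.24, 0.0397) were higher at 6 than at 2 ppm (7.1% of all genes), and Pgk1 was higher at 10 than at 6 ppm (adjusted p = 0.0486; 2.07% of all genes). From 10 to 15 ppm at 13 w, Hk1 (0.40, 0.00685), Hk2 (0.37, 0.0133), Pfkp (0.41, 0.0252) and Eno1 (0.32, 0.0308) were higher, with 8.55% of all genes higher. No member was called lower at a step, and 0 members were lower at an unadjusted p under 0.05.

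Whether the response to 15 ppm changed between times, which may differ in the age of the rats as well as in exposure, was tested as a difference of differences. Between 13 w and 5 d, 3 members had a larger response at 13 w, all of them at the entry of glucose into the pathway, when 15.3% of all genes differed in either direction and 9.21% had a more positive change at 13 w. The response was larger by 0.53 ± 0.15 (SE) for Hk1 (adjusted p = 0.00891), by 0.44 ± 0.14 for Slc2a1 (0.0235) and by 0.43 ± 0.15 for Hk2 (0.0427). The Hk1 call held with each rat left out in turn. The Slc2a1 call did not hold without rat 226, 358, 359 or 378 (0.0591 to 0.0759). The Hk2 call did not hold without any one of 11 rats (0.0556 to 0.107) or with arrays centred on their medians (0.42, 0.0674). Without rat 226, 358 or 378, 1 member was called in place of 3. Between 4 w and 5 d and between 13 w and 4 w, both with 0.7 ppm as the reference, limma called 0 members (3.45% and 0.0633% of all genes), and 3 and 1 members had an unadjusted p under 0.05. For the responses to 6 and 10 ppm, the test between 13 w and 5 d called 0 members each (0% and 0.00703% of all genes). At an unadjusted p under 0.05 there were 0 and 1. In the 0 ppm rats, 0 members differed between 13 w and 5 d, when 2.24% of all genes did, and 0 had an unadjusted p under 0.05.

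At the lowest dose some members lay under the controls at 13 w, without passing the test. Eno1 had 11.59, 11.71, 11.99 and 12.01 at 0.7 ppm, all below the lowest control at 12.11, a change of -0.37 with a 95% interval from -0.58 to -0.16. Ldha had 12.03, 12.11, 12.27 and 12.28, all below the lowest control at 12.36, a change of -0.30. Aldoa changed by -0.15, also with all 4 rats under all controls. After adjustment over all genes each of these had a p of 1, and limma called 0 of 14217 genes in that comparison (0%). At an unadjusted p under 0.05, 3 members were lower. The shares of all genes without overlap or at that unadjusted p were not counted, so the members cannot be set against them. At 0.7 ppm after 5 d 0 members were called (0%), and 1 was higher at an unadjusted p under 0.05.

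Markers of several cell types were called as well, and the lists differed in the doses and times at which they moved. At 10 ppm, neutrophil and macrophage markers were called higher at 4 w but not at 5 d or 13 w. At 15 ppm after 5 d, 5 of 5 neutrophil markers were higher. The log2 of their summed signals, which the brightest markers dominate, was 14.1 to 14.8 against 10.2 to 12.3 at 0 ppm. Higher too were 5 of 7 macrophage markers (13.8 to 14.3 against 12.7 to 12.9) and 5 of 6 markers of T and NK cells. At 4 w the counts higher were 4 of 5, 3 of 7 and 3 of 6. At 13 w they were 1 of 5, 0 of 7 and 0 of 6, and 3 macrophage and 2 T and NK cell markers were lower. Markers of dividing cells rose in full, 7 of 7, at 15 ppm at all 3 times. The log2 of their summed signals was 12.1 to 12.6 against 10.7 to 11.0 at 5 d and 12.2 to 12.7 against 10.1 to 10.5 at 13 w. Dividing-cell markers also rose, 7 of 7, at 6 ppm after 5 d and 13 w, where 0 and 1 members were called. The median changes of the members there were 0.13 and 0.15, and 3 members were higher at an unadjusted p under 0.05 each time. Basal and squamous epithelial markers were higher in 4 of 5 at 5 d and 5 of 5 at 4 w and 13 w. Ciliated cell markers were lower in 3, 2 and 4 of 4. Fibroblast markers were lower in 0, 1 and 3 of 5, with Dcn at -2.08, Col1a2 at -1.56 and Col1a1 at -1.48 after 13 w, and 3 of 5 were also lower at 10 ppm after 13 w. Secretory markers were lower in 0, 1 and 2 of 5. Of 4 simple epithelial markers, 1, 1 and 2 were higher and 1, 2 and 2 lower. For all these lists at 15 ppm, 18.3%, 21.3% and 23.5% of all genes were higher and 19.5%, 16.1% and 20.6% lower at the 3 times. Counts such as 1 of 5 lie near those shares. At 10 ppm after 13 w, 12.5% of all genes were lower, and at 6 ppm 3.54% were higher after 5 d and 7.54% after 13 w. None of the 5 endothelial markers was called at 15 ppm at any time, and 1, 0 and 0 were higher at an unadjusted p under 0.05 at 5 d, 4 w and 13 w. All 4 simple epithelial markers had signals of at least 11.8 on every array, while Ivl, a squamous marker, went down to 4.24 and Scgb1a1, a secretory marker, lay from 5.78 to 6.95. Omp, the marker of olfactory neurons, ranged from 9.46 to 13.6 although that lining had been discarded. RNA integrity numbers averaged 7.57 at 0 ppm and 8.90 at 15 ppm after 13 w (n = 3 with a value in each). The part of these shifts in the members' changes was not tested.

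Other enzymes of the pathway, from lists of genes outside the 10, showed a mixed picture. Of 21 measured genes for other glycolytic enzymes and lactate transport, 7 rose and 4 fell at 15 ppm after 5 d, 5 rose and 1 fell after 4 w, and 4 rose and 1 fell after 13 w. Their median changes were 0.14, 0.15 and -0.11. Of all genes, 18.3%, 21.3% and 23.5% were called higher and 19.5%, 16.1% and 20.6% lower. Pgam1, the phosphoglycerate mutase that acts between Pgk1 and Eno1 in the pathway, rose by 0.57, 0.75 and 0.82 (adjusted p = 3.4e-11, 7.72e-15 and 1.27e-16). Tpi1, triose phosphate isomerase, rose by 0.58, 0.44 and 0.32. Gpi, glucose phosphate isomerase, gave -0.04, 0.18 and 0.00 and was called in 0 of the 14 dose comparisons, with 3 at an unadjusted p under 0.05. Hk3, Gapdh and Pkm had no probe set naming them alone.

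The transporter that follows Ldha in the path of lactate had larger changes at 15 ppm than any of the 10 members. Slc16a1, which encodes the lactate and pyruvate carrier MCT1, had 6.94, 7.11, 7.20 and 7.39 at 0 ppm and 9.27, 9.30, 9.42 and 9.55 at 15 ppm after 5 d. At 13 w it had 6.23, 6.49, 6.50 and 7.38 and 9.07, 9.44, 9.57 and 9.69. The exposed rats lay more than 1 log2 unit above the highest control each time. It rose 4.66-fold at 5 d (adjusted p = 2.28e-13), 5.48-fold at 4 w (1.18e-14) and 6.93-fold at 13 w (5.21e-17), and it was called from 6 ppm at 5 d (0.71, 0.0182) and 13 w (1.03, 0.000279).

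Slc16a3, the lactate exporter MCT4, and Slc2a3, the high-affinity glucose transporter GLUT3, are both known HIF targets, and their rise at 15 ppm was largest at 5 d. Slc16a3 had 6.69, 6.76, 6.83 and 6.98 at 0 ppm and 7.81, 8.31, 8.38 and 8.86 at 15 ppm after 5 d, but 6.98 to 7.17 and 6.89 to 7.17 after 13 w. The groups stood apart at 5 d and coincided at 13 w. Its change was 1.52 at 5 d (1.15e-12), 0.52 at 4 w (0.00312) and -0.04 at 13 w, and the 13 w response was smaller than that at 5 d by a difference of -1.56 (adjusted p = 7.22e-08). Slc2a3 had 5.38, 5.39, 5.71 and 5.88 at 0 ppm and 6.72, 6.75, 6.85 and 7.01 at 15 ppm after 5 d, a change of 1.24 (5.51e-09), and the difference between 13 w and 5 d was -1.45 (2.73e-06). These 2 responses therefore ran opposite in time to that of Slc2a1, and they ran with the neutrophil, macrophage and lymphocyte markers given above. The part of those cells was not tested.

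**Figure D4:**
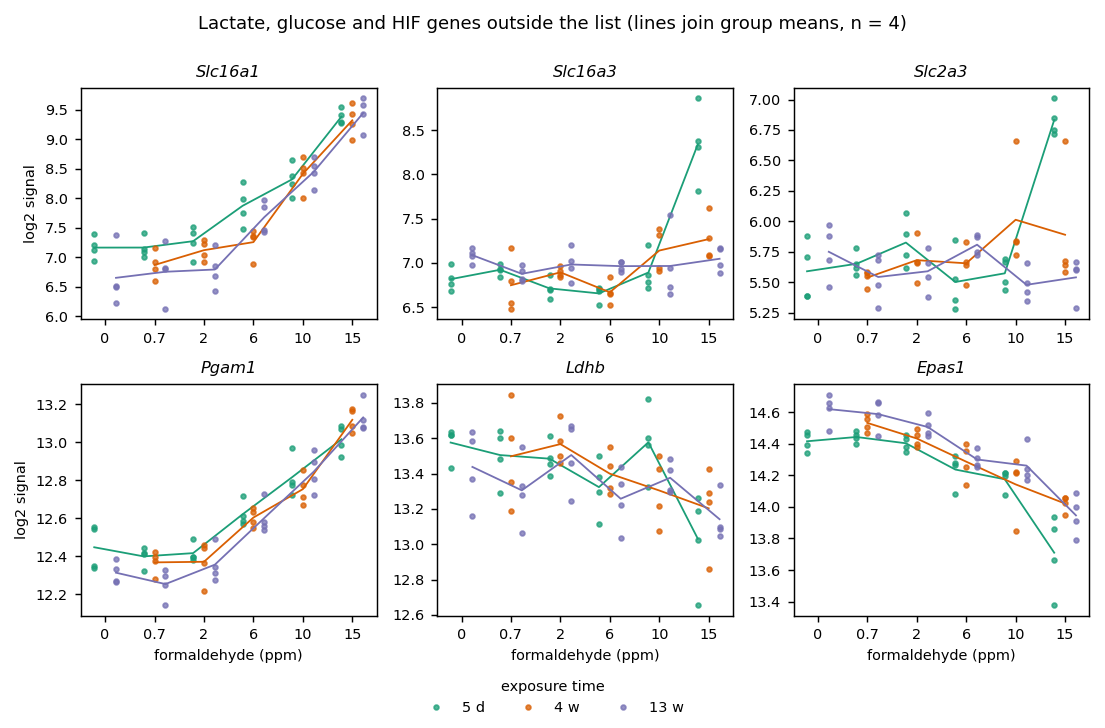
log2 signal of 6 genes outside the list in every animal by formaldehyde dose in ppm, with points for rats and lines joining the means of 4 rats at 5 d, 4 w and 13 w. Slc16a1 and Pgam1 climb at each time, Slc16a3 and Slc2a3 stand high at 15 ppm after 5 d, and Epas1 declines with dose.

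In the side branches of glucose use, most glycogen genes fell. Of 6 glycogen genes, 5 fell and none rose at 15 ppm after 5 d, 4 fell after 4 w and 5 fell after 13 w, with median changes of -0.42, -0.31 and -0.40. No glycogen gene was higher at an unadjusted p under 0.05 either. For this list and those that follow, 18.3%, 21.3% and 23.5% of all genes rose and 19.5%, 16.1% and 20.6% fell. Pygb, the brain-type glycogen phosphorylase, changed by -0.87, -0.65 and -0.84, and Gbe1, the branching enzyme, by -1.16 at 13 w. Among 11 genes for pyruvate dehydrogenase and its kinases, 3 fell at each time and 1, 0 and 1 rose. Those that fell included Pdk2 (a kinase that inactivates the dehydrogenase), with -0.49, -0.43 and -0.35. Pdk1, the family member known as a HIF target, fell by 0.36 at 5 d (adjusted p = 0.00103) and by 0.26 at 4 w (0.0169) and gave 0.18 at 13 w (0.109). In the pentose phosphate pathway, which feeds NADPH and ribose synthesis, 2, 3 and 3 of 6 genes rose and 1, 0 and 0 fell. Pck2, the mitochondrial phosphoenolpyruvate carboxykinase, was the 1 of 4 gluconeogenic genes called lower, with -0.27, -0.31 and -0.41. Txnip, which restrains glucose uptake, fell by 0.58 at 5 d and 0.65 at 13 w, in a list of 7 uptake and hexokinase regulators of which 2, 0 and 3 fell and 0, 0 and 1 rose.

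HIF targets outside glycolysis did not move as a block. Of 24 measured, 7 rose and 4 fell at 5 d, 5 rose and 5 fell at 4 w, and 5 rose and 7 fell at 13 w. Over all genes, 18.3%, 21.3% and 23.5% rose and 19.5%, 16.1% and 20.6% fell. The 24 targets had median changes of 0.17, 0.05 and 0.01. Those that rose included Edn1, the vasoconstrictor endothelin (0.89, 0.96 and 1.29), Angptl4, an inhibitor of lipoprotein lipase (0.90, 0.96 and 0.91), and the stress-responsive Ndrg1 (0.77, 1.22 and 1.05). Those that fell included Insig2, a regulator of sterol synthesis (-0.61, -0.51 and -0.53), Mxi1, a Myc antagonist (-0.51, -0.42 and -0.48), and the mitophagy receptor Bnip3 (-0.94 at 13 w). Of 8 genes for HIF subunits and oxygen sensing, 2 fell at each time and 0, 1 and 1 rose. Epas1, which encodes HIF-2 alpha, had 14.34, 14.39, 14.45 and 14.48 at 0 ppm and 13.38, 13.66, 13.86 and 13.94 at 15 ppm after 5 d, all lower than the controls. It fell by 0.71, 0.51 and 0.67 (adjusted p = 1.11e-10, 4.13e-07 and 2.36e-10), at the doses where Hif1a rose. Arnt, the shared beta subunit, was higher at 4 w (0.35, 0.00612), and Egln3, an oxygen-sensing hydroxylase and HIF target, was called in 0 of 14 comparisons with 0 at an unadjusted p under 0.05. The same 2 counts were 0 for Pfkfb3, which makes the activator of phosphofructokinase. Of the 9 VEGF ligands and receptors other than Vegfa, none rose at 15 ppm, also at an unadjusted p under 0.05, and Vegfb, the B ligand, changed by -0.46, -0.46 and -0.69.

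**Figure D5:**
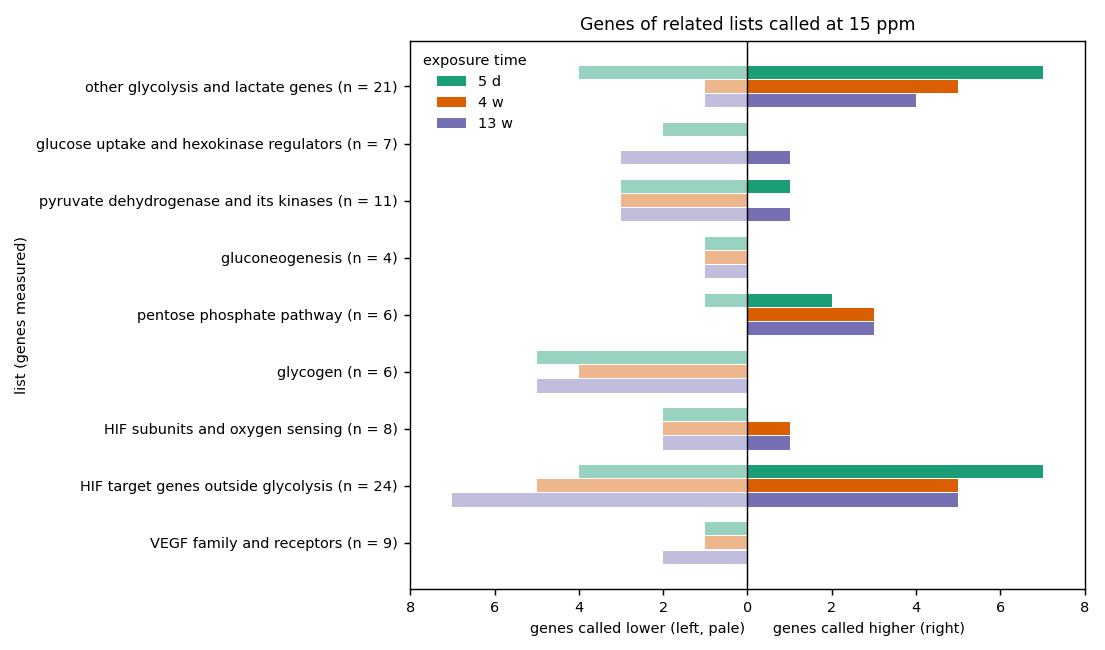
Number of genes called higher (right) and lower (left, pale) at 15 ppm in 9 lists of related genes at 5 d, 4 w and 13 w, with the number measured in each list beside its name. Glycogen genes lie to the left at all 3 times, and HIF targets outside glycolysis lie on both sides.

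Among themselves the members followed dose to different degrees. Over the 17 group means, which share the dose series and the array processing, Pearson's r was 0.96 between Eno1 and Ldha, 0.44 to 0.80 between Slc2a1 and the other members outside Vegfa, and -0.32 to 0.17 between Vegfa and the rest. The genes outside the list with the most similar pattern over these 17 means were Ahcy, Birc5 and Nup43 for Pgk1 (r = 0.99), Lad1, Cttn and Nup93 for Hk1, Txndc17, Ddx39a and Tax1bp3 for Ldha, and Psmc1, Nup85 and C1qbp for Eno1. They were Ippk, Foxq1 and Dnaja2 for Slc2a1, Fam43a, Pinx1 and Etf1 for Hk2, Trim59, Taf12 and Scarb2 for Pfkp, and Mdh2, Ap2m1 and Tpmt for Aldoa. The closest pattern to Hif1a was that of Supt6h (r = 0.93), and the closest to Vegfa that of Leng9 (r = 0.88). The group means of Slc2a1, Hk1, Hk2, Pfkp and Vegfa were highest at 15 ppm after 13 w, those of Aldoa, Pgk1, Ldha and Hif1a at 15 ppm after 5 d, and that of Eno1 at 15 ppm after 4 w. The distance between the lowest and highest group means was 1.11 for Eno1, 1.04 for Ldha and 1.02 for Hk2, and 0.39 for Vegfa and 0.38 for Aldoa.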

How the data were processed

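RNA of 68 rats was hybridised to Affymetrix rat arrays. The authors' deposited table holds log2 values of 31099 probe sets, read with GCOS 1.0 and summarised by RMA per the submitters' processing notes. The genome build and further settings are not given in the sources used here. Probe sets naming 1 gene (20826) gave 14217 genes, each by its brightest probe set. No filter on low signal was set. Array medians lay between 6.82 and 6.96, and the number of arrays limits the precision.

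A mean per group was fitted over all 68 arrays with limma 3.58.1 in R 4.3.3 (lmFit, eBayes), with p-values adjusted by Benjamini-Hochberg over all genes within each comparison, and tested on simulated data. Animals are the replicates, and no file or label used here names a batch. Alternatives covered normalization, signal filter, probe set choice, weights, variance moderation, reference dose, RNA quality covariates, a fold threshold and leaving out each rat. The 10 genes, the gene lists and the tests were chosen with earlier results of these data known. Every member was named, and up to 4 called genes in each direction by smallest adjusted p, or genes set by name, were eligible from each list. The 3 most similar genes by Pearson's r were named for members except Hif1a and Vegfa, for which 1 is given. Promoter windows are from RefSeq (GRCr8).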

Additional observations from a re-analysis of the deposited data

Results flagged for a closer look

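In 5 of 170 sets of 4 rats (10 genes in 17 groups), 1 rat lay far from the other 3 by Dixon's criterion, and chance gives about 1 in 20. Rat 230 had an Hk1 signal of 9.27 at 0 ppm after 13 w, where the others had 9.40 to 9.42. Rat 273 had an Aldoa signal of 13.17 at 2 ppm after 4 w (others 13.39 to 13.42), and rat 277 of the same group a Vegfa signal of 10.64 (others 9.85 to 9.98). At 0.7 ppm after 13 w, rat 260 had a Pgk1 signal of 12.47 (others 12.63 to 12.65) and rat 258 a Hif1a signal of 11.30 (others 11.44 to 11.46).

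The response to 15 ppm differed between 13 w and 5 d, by limma's test of the difference itself, for Hk1 (larger by 0.53 at 13 w, adjusted p = 0.00891), Slc2a1 (0.44, 0.0235) and Hk2 (0.43, 0.0427).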

How the results depend on the processing

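Where a count or call moved, the cause was not tested, except that a fold threshold lowers counts by construction. At 6 ppm after 5 d, where 0 members were called, the count was 1 with arrays centred on their medians, 3 with array weights, 1 against 0.7 ppm, 1 with RNA integrity as a covariate, 1 with the beta-actin difference as a covariate, and 2 without the 5 arrays that lack an RNA integrity number, an alternative chosen after seeing the data. Of all 14217 genes, these fits called, in that order, 1151, 2606, 1030, 896, 595 and 1051, against 1256 in the main fit. Requiring a change of 1.5-fold as well left 0 at 10 ppm and 2 at 15 ppm after 5 d, 0 at 6 and 10 ppm after 4 w, and 0 at 6 and 10 ppm and 5 at 15 ppm after 13 w. At 4 w, cyclic loess gave 2 at 6 ppm and 7 at 10 ppm, and array weights gave 2 and 8. Of all genes, cyclic loess called 633 and 2281 there and array weights 417 and 2968, against 467 and 2102 in the main fit. At 6 ppm after 13 w the count was 2 against 0.7 ppm and 0 with RNA integrity as a covariate, with 1550 and 1438 of all genes called, against 1737 in the main fit. Leaving out each rat in turn gave 0 to 2, 3 to 8 and 7 to 8 at 6, 10 and 15 ppm after 5 d, 0 to 2, 3 to 5 and 8 to 9 after 4 w, 0 to 1, 6 to 8 and 9 to 9 after 13 w, and 1 to 3 for the 15 ppm response at 13 w against 5 d. The shares of all genes called with the fold threshold or with a rat left out are not given here, so those member counts cannot be set against them. The second Hk1 probe set turned the sign at 5 d, with -0.14 at 10 ppm and -0.13 at 15 ppm, and the mean of both Hk1 probe sets gave 0.15 and 0.09, not called. By itself the second set also did not pass at 15 ppm after 4 w or at 10 ppm after 13 w. No paired analysis was possible because each animal number belongs to one group.

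A 0 ppm group at 4 w was not analysed here, dim probe sets such as that of Hk2 compress changes, and related transcripts can share a probe set.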
